A study of Homo sapiens with 22 samples.

Results

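The genes of platelet-derived growth factor (PDGF) signalling described here were the 4 ligands PDGFA, PDGFB, PDGFC and PDGFD and the 2 receptors PDGFRA and PDGFRB, taken by symbol from the table of all samples, which made 6 of 36859 genes. They were measured by RNA-seq in RPTEC, human renal proximal tubule epithelial cells immortalized with hTERT. There were 22 libraries in 11 groups of 2. In 2% serum these were WT cells, WT cells given 10 ng/ml TGF-β for 72 h, and the clones KO1 and KO2, each 1 clone cut in SETD2, which encodes a histone methyltransferase, together with libraries labelled KO2_Rescue. In 10% serum these were the clones Rescue1 and Rescue2, which carry full-length SETD2 from a lentivirus and were selected with blasticidin, and WT cells transduced in bulk and selected with puromycin to express eGFP, SOX2, OCT2 (gene POU2F2) or PRRX1. Only these WT lines are called the transduced lines below, although the rescue clones were transduced too. The labels do not tie Rescue1 and Rescue2 to KO1 or KO2, and serum, selection and rescue cannot be told apart when these clones are set against the knockouts.

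PDGF ligands are secreted dimers. PDGF-A and PDGF-B are cut by furin-type proteases inside the cell, whereas PDGF-C and PDGF-D carry a CUB domain that proteases remove outside it. They bind the receptor tyrosine kinases PDGFRα and PDGFRβ, which dimerize and recruit SH2-domain proteins that feed the RAS, PI3K and PLCγ pathways. In the kidney the ligands are known mainly as signals from epithelium and endothelium, and the receptors as genes of fibroblasts, mesangial cells and pericytes, which is why both receptors are often read as mesenchymal markers.

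PDGFA (ENSG00000197461) lies on the minus strand of chr7:497258-520296 (GRCh38), PDGFB (ENSG00000100311) on the minus strand of chr22:39223359-39244982, PDGFC (ENSG00000145431) on the minus strand of chr4:156760454-156971799 and PDGFD (ENSG00000170962) on the minus strand of chr11:103907189-104164379. PDGFRA (ENSG00000134853) lies on the plus strand of chr4:54229280-54298245 and PDGFRB (ENSG00000113721) on the minus strand of chr5:150113839-150155872. RefSeq promoter sequences (GRCh38.p14) were matched for 4 of the 6 genes, PDGFA, PDGFD, PDGFRA and PDGFRB, with 8 annotated starts in all. The 250 bases before a start are shown for both starts of PDGFRA, the receptor that passed the test in both knockouts and after TGF-β, for PDGFRB, the receptor that passed in no comparison, and for 1 start of PDGFA, a ligand that rose with TGF-β. The windows are chr4:54229043-54229292 (plus strand) and chr4:54233710-54233959 (plus strand) for PDGFRA, chr5:150155846-150156095 (minus strand) for PDGFRB and chr7:519847-520096 (minus strand) for PDGFA, each written 5′ to 3′ in the direction of the gene. Capitals mark matches to the motifs searched.
PDGFRA start 1: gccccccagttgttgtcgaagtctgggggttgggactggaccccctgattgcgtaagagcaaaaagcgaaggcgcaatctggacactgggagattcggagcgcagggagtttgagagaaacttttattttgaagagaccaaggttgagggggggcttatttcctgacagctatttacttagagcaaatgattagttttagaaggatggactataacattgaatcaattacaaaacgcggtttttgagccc
PDGFRA start 2: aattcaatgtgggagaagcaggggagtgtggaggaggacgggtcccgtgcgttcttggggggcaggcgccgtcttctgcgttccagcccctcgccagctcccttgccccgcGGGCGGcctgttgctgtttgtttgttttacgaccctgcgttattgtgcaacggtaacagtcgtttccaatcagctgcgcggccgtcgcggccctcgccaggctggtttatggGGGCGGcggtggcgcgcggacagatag
PDGFRB: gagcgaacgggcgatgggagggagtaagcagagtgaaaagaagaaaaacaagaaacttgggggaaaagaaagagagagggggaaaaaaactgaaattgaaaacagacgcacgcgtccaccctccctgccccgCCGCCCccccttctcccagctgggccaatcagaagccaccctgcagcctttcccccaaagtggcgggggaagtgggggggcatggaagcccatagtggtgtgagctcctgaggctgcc
PDGFA: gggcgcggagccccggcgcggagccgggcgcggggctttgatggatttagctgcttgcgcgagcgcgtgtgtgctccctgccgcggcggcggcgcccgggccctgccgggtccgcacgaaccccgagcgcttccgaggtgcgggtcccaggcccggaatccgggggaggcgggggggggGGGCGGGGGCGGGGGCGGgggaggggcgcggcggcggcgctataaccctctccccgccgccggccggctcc
The motifs were searched on both strands in 35116 promoters of the same length. The capitals in PDGFRA start 2 and PDGFRB are the SP1 box GGGCGG, found in 42.6% of all promoters, at 139 and 27 bases before the start of PDGFRA and at 118 bases before that of PDGFRB. In PDGFA the capitals hold 3 SP1 boxes end to end and, overlapping them and each other, 2 copies of the EGR box GCGGGGGCG, which was found in 4.72% of all promoters. PDGFRA start 1 held none of the 8 motifs searched. None of the 8 windows held TAATTA (a homeodomain core of the PRRX1 type, 4.35% of all promoters), ATGCAAAT (the octamer bound by OCT2, 1.63%), CATTGTT (a SOX core, 2.87%), GTCTAGAC (a SMAD4 box, 0.182%), CAGACA (a SMAD site of the CAGA type, 13.6%) or TATAAA (10.7%), which says only that these letters are not in these windows. The windows had a GC content of 46.8% and 64.0% in PDGFRA, 58.4% in PDGFRB and 81.6% in PDGFA, against a median of 58.0% over all promoters.

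Values are normalized counts, which is what each library's count would be after the authors' scaling of library depth, and their totals were 11700000 to 16800000 per library. Here a gene passed the test, and is said to have risen or fallen, where limma's adjusted p was below 0.05 and the log2 change was above 1 in size. Among genes with high counts in every library, duplicates differed by a median of 0.05 to 0.16 on the log2 scale, most in WT. There replicate 1 stood above replicate 2 for PDGFA, PDGFB and PDGFC. The PDGF genes could differ far more than this median, as PDGFB did in WT (7972 and 4002) and PDGFRB in KO2 (24.8 and 1.17). SETD2 itself was at 1852 and 2061 in WT, at 1046 to 1130.0 in KO1 and KO2 and at 9764 to 10445 in Rescue1 and Rescue2, but at 834 and 819.6 in the libraries labelled KO2_Rescue, which goes against that label. Of 18 proximal tubule markers, LRP2, SLC22A6 and HNF4A were at 3 normalized counts or fewer in every group, and the summed level of the list was 14410 to 33543. Of 9 endothelial markers, ERG, EMCN and CLDN5 were at that floor in every group, and the list summed to no more than 132. Its highest values were those of CDH5 in Rescue1, 68.7 and 83.8.

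Read per kilobase of the longest transcript, PDGFB was the leading ligand in WT cells, with 1606 ± 753 (SD, n = 2) normalized counts per kb. PDGFC followed with 563 ± 195, PDGFA with 204 ± 79.6 and PDGFD with 6.47 ± 4.82 normalized counts per kb. Both receptors were close to absent in WT cells, at 0.838 ± 0.552 per kb for PDGFRA and 1.42 ± 1.72 per kb for PDGFRB. The make-up of the ligand RNA was steadier between the WT duplicates than the levels were, since PDGFB took 64.8% and 68.9% of the ligand level per kb. After TGF-β it took 81.3% ± 0.208. In KO1 it took 9.57% ± 3.24 and in KO2 17.2% ± 1.74, so the knockouts did not overlap WT cells. PDGFC led in both knockouts, with 48.4% ± 2.42 in KO1 and 57.5% ± 1.86 in KO2. PDGFB led again in Rescue1 (57.0% ± 1.87) and Rescue2 (56.3% ± 1.17) and was slightly ahead of PDGFC in the libraries labelled KO2_Rescue, at 41.0% ± 0.944 against 38.8% ± 0.981. In the 4 transduced WT lines PDGFC was the leading ligand, with 56.4% to 65.5%, and PDGFB took 25.0% to 32.9%. PDGFD was below 1% of the ligand level in every group. A share is a ratio within a library and does not depend on the scaling between libraries.

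**Figure D1:**
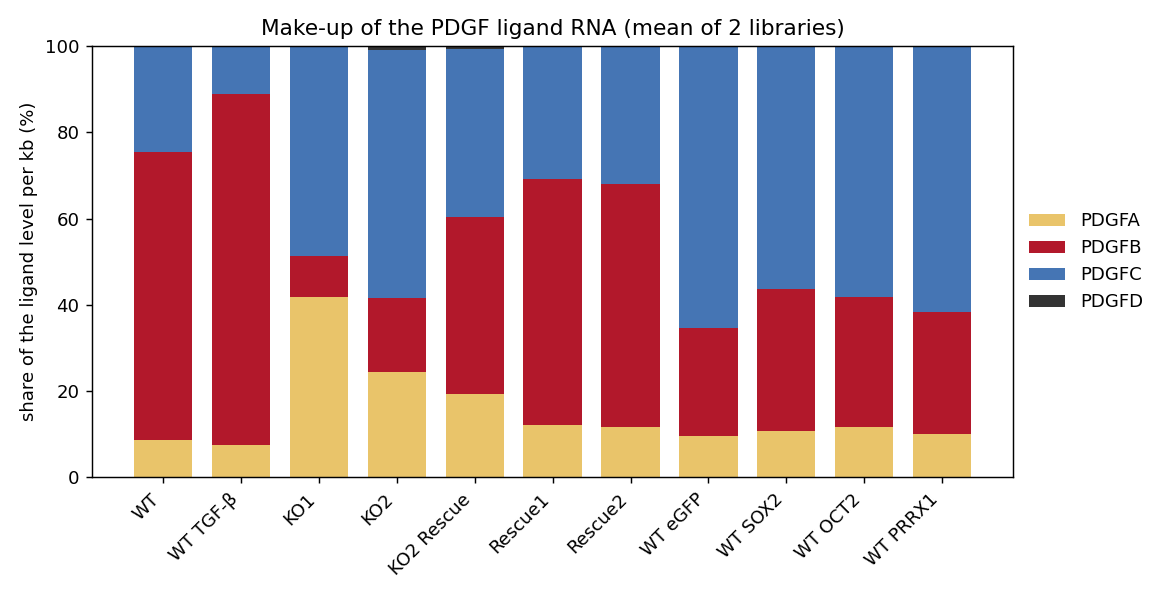
Stacked bars show the share of each PDGF ligand in the summed ligand level per kb (%), as the mean of 2 libraries in each of the 11 groups. PDGFB fills most of the bar in WT cells (66.9%) and with TGF-β (81.3%), little of it in KO1 (9.57%) and KO2 (17.2%), and most of it again in Rescue1 and Rescue2.

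The first comparison asked how the genes respond to TGF-β, the cytokine used here to induce epithelial-to-mesenchymal transition. PDGFB was at 7972 and 4002 normalized counts in the WT libraries and at 21424 and 21561 with TGF-β. The treated libraries were well above both WT libraries, and the log2 change was 1.93 ± 0.30 (SE; adjusted p = 0.00038). PDGFA went from 714 and 406 to 1515 and 1386, again without overlap, and the log2 change was 1.43 ± 0.20 (adjusted p = 0.00015). PDGFRA was at 7.83 and 2.86 in WT libraries and at 75.9 and 110.4 with TGF-β. This was the greatest change among the 6 genes, 3.99 ± 0.63 on the log2 scale (adjusted p = 4e-04). It started from a level near the detection limit, and log2 changes on the scale of the normalized count plus 1 understate changes of low genes. PDGFC, at 3202 and 1943 against 3526 and 3693, changed by 0.53 with a 95% interval of 0.14 to 0.92 and did not pass the test (adjusted p = 0.058). PDGFRB was at 15.0 and 1.13 in WT libraries and at 28.9 and 63.5 with TGF-β, higher in both treated libraries, but its interval of 0.35 to 5.48 was wide (adjusted p = 0.12), and it passed without WT replicate 1 (4.36, adjusted p = 0.041). PDGFD was at 12.4 and 40.0 against 27.6 and 0, so its groups overlapped (adjusted p = 0.42).

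Thus 3 of the 6 genes, 2 ligands and 1 receptor, rose with TGF-β and none fell, where 7.84% of the 14585 genes tested were called. The median change of the 6 was 1.68 on the log2 scale and that of all genes tested was 0. In a fit of only the 4 libraries compared, PDGFA (adjusted p = 0.064) and PDGFB (adjusted p = 0.05) no longer passed, and PDGFRA alone did. Fibroblast and pericyte markers moved in the same comparison. Of the 17 listed, 14 were tested and 4 rose, and their summed level was 5479 and 34449 in WT libraries and 111374 to 116592 with TGF-β. NOTCH3, KCNJ8, FAP, PDPN and POSTN were at the floor in both groups. The part of these markers in the PDGF changes was not tested. In bulk RNA, more cells with a receptor and more receptor RNA per cell cannot be told apart.

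**Figure D2:**
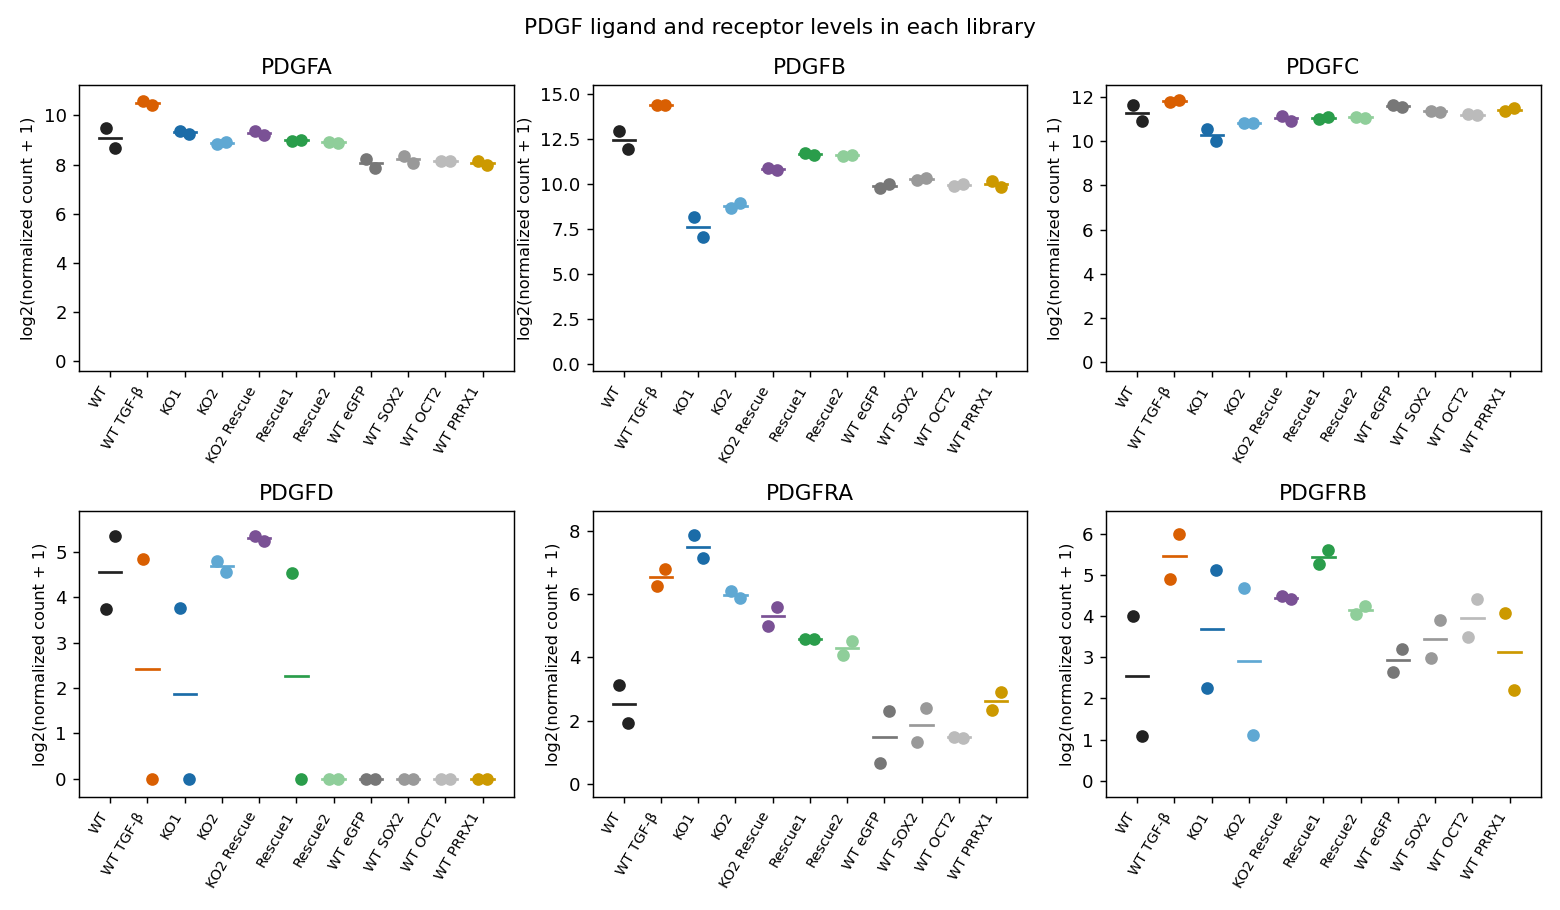
Each panel gives 1 gene as log2(normalized count + 1), with a point for each of the 22 libraries and a line at the mean of each group of 2. PDGFB fell from WT to KO1 and KO2 and was highest with TGF-β, while PDGFRA was highest in KO1 (231 and 139 normalized counts) and lowest in WT and in the transduced lines.

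The second comparison set each SETD2 knockout clone against the same 2 WT libraries. PDGFB was at 286 and 132 normalized counts in KO1 and at 403 and 483 in KO2, against 7972 and 4002 in WT. Every knockout library was far below both WT libraries, by 28.7-fold in KO1 and 13.5-fold in KO2 as a ratio of means. The log2 changes were -4.86 ± 0.30 (adjusted p = 6.9e-09) and -3.68 ± 0.30 (adjusted p = 2.7e-07). PDGFRA went the other way and was at 231 and 139 in KO1 and at 67.9 and 57.2 in KO2, against 7.83 and 2.86 in WT. All 4 knockout libraries were above both WT libraries, with a log2 change of 4.95 ± 0.63 for KO1 (adjusted p = 1.5e-05). For KO2 it was 3.44 ± 0.63 (adjusted p = 0.00065). Leaving out WT replicate 1 or 2 moved these changes to 5.55 or 4.35 in KO1 and to 4.04 or 2.84 in KO2, each still past the test. PDGFC was at 1478 and 1035 in KO1 and at 1825 and 1809 in KO2. It fell in KO1 by 1.01 on the log2 scale (adjusted p = 0.00039), just past the threshold of 1, and changed by -0.46 in KO2 (adjusted p = 0.075). Without WT replicate 1 the KO1 change was -0.65, and without KO1 replicate 2 it was -0.75, both short of the threshold.

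PDGFA was at 665 and 613 in KO1 and at 452 and 476 in KO2, both within the span of the WT libraries, with 95% intervals of the log2 change of -0.18 to 0.68 and -0.64 to 0.22. PDGFRB varied as much within a clone as between groups. It was at 3.77 and 34.2 in KO1 and at 24.8 and 1.17 in KO2, and its intervals ran from -1.42 to 3.71 and from -2.21 to 2.92. PDGFD was at 12.5 and 0 in KO1 and at 27.0 and 22.5 in KO2. In KO1, 3 of the 6 genes passed the test (1 higher, 2 lower) where 25.0% of all genes tested did. In KO2, 2 of the 6 passed (1 higher, 1 lower) where 16.3% of all genes did. Both clones were compared with the same WT libraries, so the 2 results are not independent. The fibroblast and pericyte markers summed to 228054 to 242085 in KO1 and 115968 to 120060 in KO2. COL3A1, KCNJ8 and FAP were at the floor in both clones. The list did not move as a whole. Of its 14 genes tested, 6 rose and 3 fell in KO1, where 25.0% of all genes were called. In KO2, 6 rose and 1 fell, where 16.3% of all genes were called. The part of these markers in the PDGFRA change was not tested.

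**Figure D3:**
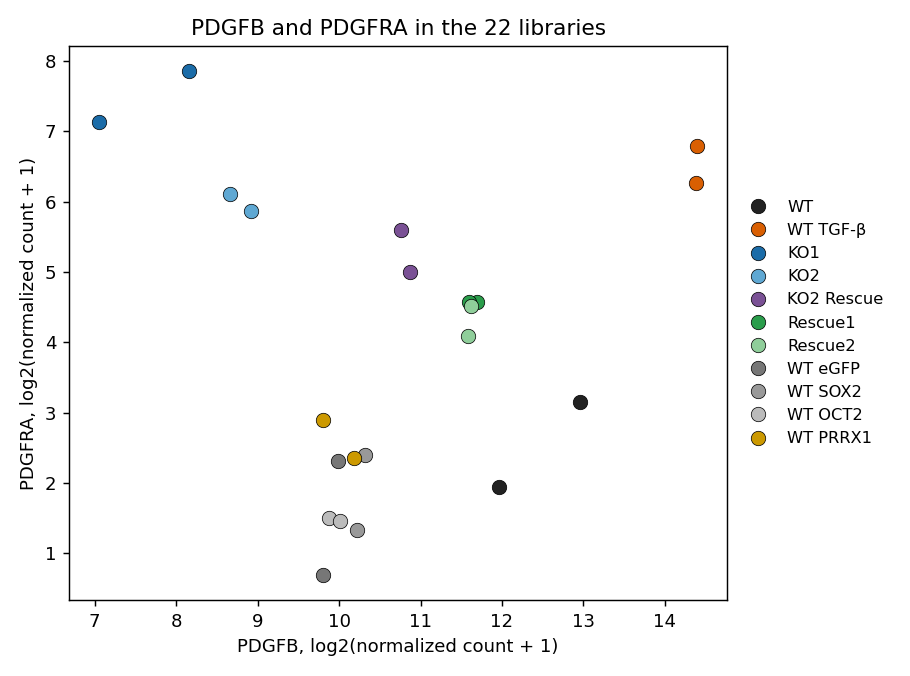
Each of the 22 libraries is placed by PDGFB (horizontal) and PDGFRA (vertical), both as log2(normalized count + 1), and coloured by group. The knockouts lie at the upper left (PDGFB 132 to 483 normalized counts, PDGFRA 57.2 to 231), TGF-β at the upper right (PDGFB 21424 and 21561, PDGFRA 75.9 and 110.4), and the transduced lines at the bottom.

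Set directly against TGF-β-treated WT cells, the mean of KO1 and KO2 was lower for 3 of the 6 genes, where 20.2% of all genes tested were called in either direction. PDGFB was lower by 66.0-fold as a ratio of means (325.8 against 21492 normalized counts; log2 change -6.19 ± 0.26, adjusted p = 8.6e-11). PDGFA (-1.41 ± 0.17, adjusted p = 1.3e-05) and PDGFC (-1.27 ± 0.16, adjusted p = 1.3e-05) were lower too. PDGFRA did not pass the test in this comparison, with a change of 0.21, a 95% interval of -0.96 to 1.37 and an adjusted p of 0.81. PDGFRB was lower by 2.16 on the log2 scale without passing (adjusted p = 0.12). It did pass without KO1 replicate 2 (-2.88) or without KO2 replicate 1 (-3.05), the libraries in which it was highest among the knockouts.

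The 2 clones differed from each other in PDGFB, which was lower in KO1 than in KO2 (-1.18 ± 0.30 on the log2 scale, adjusted p = 0.015), the only one of the 6 genes called where 6.97% of all genes were. This difference rested on single libraries. It was -0.63 without KO1 replicate 2 and -1.05 without KO2 replicate 2, with neither passing the test, and it did not pass in a fit of these 4 libraries alone (adjusted p = 0.2). PDGFRA was 2.96-fold higher in KO1 as a ratio of means, with an interval of the log2 change of 0.17 to 2.85 (adjusted p = 0.12).

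Restoring SETD2 was examined in Rescue1 and Rescue2. PDGFB was at 3320.1 and 3101 normalized counts in Rescue1 and at 3065 and 3149 in Rescue2, above all 4 knockout libraries and below both WT libraries. The rise over the mean of KO1 and KO2 was 3.43 ± 0.21 on the log2 scale (adjusted p = 5.7e-09). PDGFRA was at 22.8 and 22.7 in Rescue1 and at 16.0 and 21.96 in Rescue2, below all 4 knockout libraries and above both WT libraries. It fell by 2.30 ± 0.44 on the log2 scale (adjusted p = 6e-04). Against KO2 alone the changes were smaller, 2.84 for PDGFB and -1.55 for PDGFRA (adjusted p = 0.039), and against KO1 alone they were 4.02 and -3.06. Cell type markers moved in this comparison too. The fibroblast and pericyte list summed to 115968 to 242085 in the knockouts and 39670 to 51644 in the rescue clones. COL3A1, KCNJ8 and FAP were at the floor in both. Of its 14 genes tested, 3 were higher and 5 lower, or 57.1% where 23.3% of all genes were called. The proximal tubule list summed to 14410 to 20177 in the knockouts and 30446 to 33543 in the rescue clones. Of its 13 genes tested, however, 2 were higher and 2 lower (30.8%), and the median log2 change was -0.49. Of 5 endothelial markers tested, 2 were higher and 0 lower (40.0%), from low levels. They were ROBO4 and CDH5, which was at 0 in the knockouts, at 68.7 and 83.8 in Rescue1 and at 5.75 and 23.6 in Rescue2. The part of these markers in the PDGF changes was not tested. PDGFC, at 2109.9 to 2206 in Rescue2 and 2052 to 2169 in Rescue1, was higher than in the knockouts with an adjusted p of 0.0045, but its change of 0.51 was under the threshold of 1. PDGFA changed by -0.15 (95% interval -0.45 to 0.15). PDGFRB was at 37.8 and 48.1 in Rescue1 and at 15.8 and 18.2 in Rescue2 (adjusted p = 0.16 against the knockouts), and PDGFD was at 22.2 in 1 Rescue1 library and at 0 in the other 3 (adjusted p = 0.12). In this comparison 2 of the 6 genes passed (1 higher, 1 lower), where 23.3% of all genes tested did.

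Serum differed between the rescue clones and the knockouts, so the clones were also set against the eGFP line, which was kept in the same 10% serum. The clones still differed from this bulk line in selection, in being single clones and in the knockout they came from. SETD2 differed too, at 9764 to 10445 in the clones against 2947 and 3128 in the eGFP line. These differences cannot be told apart here. PDGFB (1.73 ± 0.26, adjusted p = 0.00014) and PDGFRA (2.94 ± 0.54, adjusted p = 0.00079) were higher in the rescue clones, 2 of the 6 genes where 13.1% of all genes were called. The PDGFRA value was 2.13 without WT_eGFP replicate 1 and 3.75 without WT_eGFP replicate 2. PDGFA was higher by 0.88 (adjusted p = 0.0014) and PDGFC lower by 0.52 (adjusted p = 0.021), both under the threshold of 1. Between Rescue1 and Rescue2 none of the 6 genes passed, with 0.994% of all genes called, and none had an unadjusted p under 0.05. The interval of the difference was narrow for PDGFB (-0.60 to 0.69), PDGFA (-0.35 to 0.51) and PDGFC (-0.42 to 0.36) and wide for PDGFRB (-1.28 to 3.85).

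The libraries labelled KO2_Rescue were in 2% serum, as KO2 was, and showed SETD2 no higher than KO2. PDGFB was at 1868 and 1737 there against 403 and 483 in KO2, a rise of 2.03 ± 0.30 on the log2 scale (adjusted p = 0.00037) and the only one of the 6 genes called, where 4.17% of all genes were. PDGFRA was at 31.0 and 47.5 against 67.9 and 57.2. It did not overlap KO2, yet its change of -0.69 had an interval of -2.03 to 0.66 (adjusted p = 0.62). PDGFA was at 658 and 594 (adjusted p = 0.23), PDGFC at 2239.7 and 1945 (adjusted p = 0.61), PDGFRB at 21.4 and 20.3 (adjusted p = 0.53) and PDGFD at 40.0 and 36.6 (adjusted p = 0.9).

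**Figure D4:**
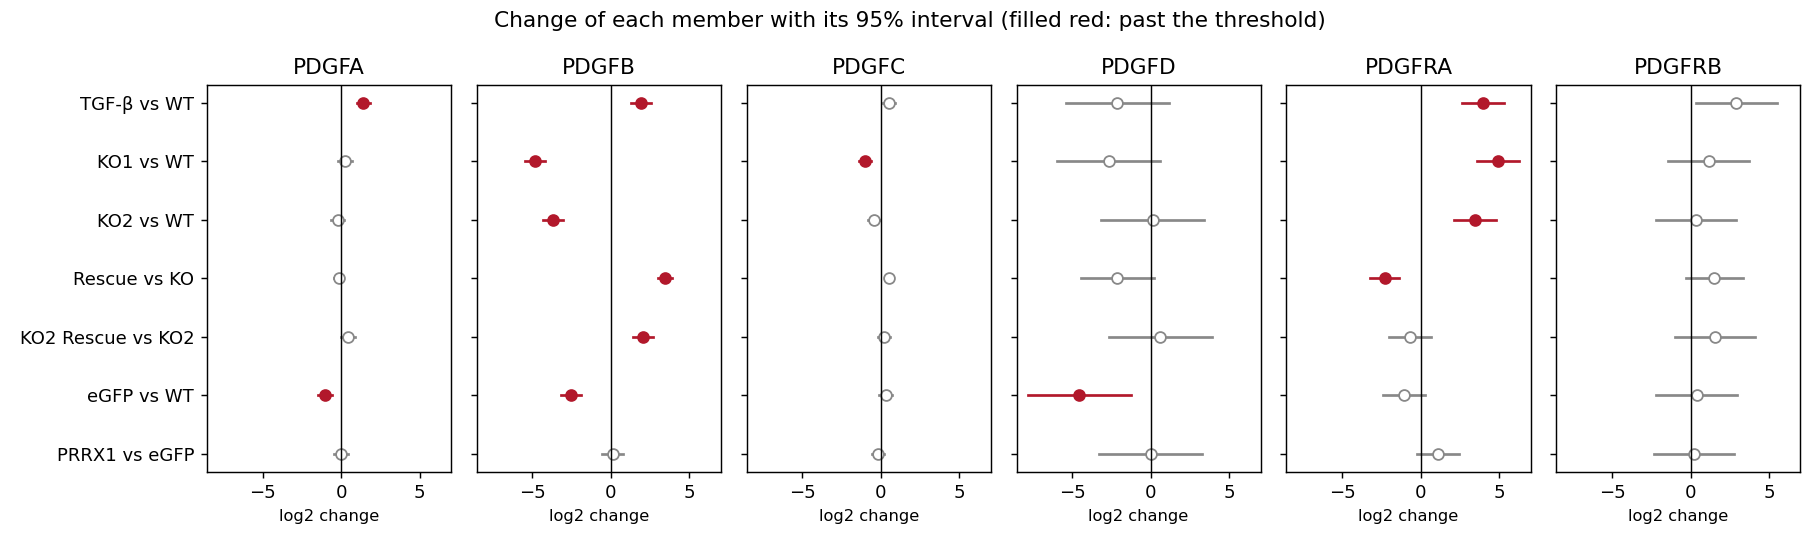
Points give the log2 change of each of the 6 genes in 7 comparisons and lines its 95% interval, with filled red points for changes that passed the test. PDGFB and PDGFRA passed in opposite directions in KO1 and KO2 against WT and in the rescue clones against the knockouts. They passed in the same direction with TGF-β. The intervals of PDGFD and PDGFRB were several times wider than those of PDGFA, PDGFB and PDGFC.

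The 4 transduced lines carried SOX2, OCT2 or PRRX1, with eGFP as their control. PRRX1 was at 395 and 404 normalized counts in its line and at 0 in both eGFP libraries (adjusted p = 0.00015). POU2F2, the OCT2 gene, was at 1251 and 1121 in its line against 279 and 357, without overlap, but the difference did not pass (adjusted p = 0.42). A count per gene does not tell a transgene from the cell's own gene. SOX2 is not analysed here. None of the 6 PDGF genes passed the test in the SOX2 (0.0206% of all genes called), OCT2 (0.0343%) or PRRX1 line (0.0411%), and of the 18 changes 1 had an unadjusted p under 0.05, PDGFC in the OCT2 line (-0.39). PDGFRA was at 4.11 and 6.45 in the PRRX1 line, at 0.611 and 3.94 in the eGFP line, at 1.52 and 4.27 in the SOX2 line and at 1.82 and 1.75 in the OCT2 line. Both PRRX1 libraries were above both eGFP libraries, but the levels were at or near the floor, and the change of 1.13 had an interval of -0.22 to 2.47 (adjusted p = 1). For comparison, PRRX1 was at 37.5 and 8.98 in KO1 and at 34.8 and 28.4 in KO2, where PDGFRA was at 57.2 to 231. The knockouts also differed from the PRRX1 line in serum, SETD2 and cloning. The paper names PDGFRA as a target of PRRX1, from footprints in its chromatin accessibility data. A link between PRRX1 and PDGFRA was not tested here. PDGFB changed by 0.37 (interval -0.27 to 1.02) with SOX2, 0.05 (-0.60 to 0.69) with OCT2 and 0.10 (-0.54 to 0.74) with PRRX1.

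The eGFP line differed from untransduced WT cells in serum, transduction and selection at once, which cannot be told apart. PDGFB was at 893 and 1014 against 7972 and 4002 in WT and fell by 2.57 ± 0.30 on the log2 scale (adjusted p = 1.8e-05). PDGFA was at 302 and 235 against 714 and 406 and fell by 1.01 ± 0.20 (adjusted p = 0.0016), which was no longer past the threshold without WT replicate 1 (-0.61) or without WT_eGFP replicate 2 (-0.83). PDGFD was at 0 in both eGFP libraries, at least 8.74-fold lower than in WT when set against a floor of 3 normalized counts (adjusted p = 0.041), and it no longer passed when any 1 of the 4 libraries was left out (adjusted p = 0.061 to 0.2). PDGFC was at 3176 and 2954 (adjusted p = 0.27), PDGFRA at 0.611 and 3.94 (adjusted p = 0.25) and PDGFRB at 5.24 and 8.25 (adjusted p = 0.87). Thus 3 of the 6 genes passed, all lower, where 12.7% of all genes tested were called.

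Ranked by level, the 2 lead genes gave different orders of the groups. PDGFB ran from TGF-β through WT, Rescue1, Rescue2, the libraries labelled KO2_Rescue, and the SOX2, PRRX1, OCT2 and eGFP lines down to KO2 and KO1. Rescue1 and Rescue2 overlapped, as did PRRX1 with OCT2 and OCT2 with eGFP. PDGFRA ran from KO1 through TGF-β, KO2, KO2_Rescue, Rescue1 and Rescue2, all without overlap between neighbours, to WT and the 4 transduced lines, which overlapped from one to the next. PDGFC had a narrow range, from 1256 normalized counts in KO1 to 3610 with TGF-β. PDGFA was highest with TGF-β (1451) and lowest in the 4 transduced lines (266.0 to 297), which overlapped from one to the next. PDGFD was at 0 in 13 of the 22 libraries, among them all 8 transduced and both Rescue2 libraries. PDGFRB reached 63.5 at most, in a TGF-β library.

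Genes whose products process or bind PDGF ligands changed in the same comparisons. Of 10 listed, 9 were tested. With TGF-β, 4 rose and 1 fell, or 55.6% where 7.84% of all genes were called, with a median of 0.96 on the log2 scale against 0 for all genes. They included CSPG4 (3.46, from 9.40 to 65.2 normalized counts), the NG2 proteoglycan of pericytes that binds PDGF-AA, and SPARC (2.71), a matrix protein that binds PDGF-B. PDGFRL, a receptor-like protein with immunoglobulin domains, rose by 1.54 from a low level of 5.58. These 3 calls rested on single libraries. CSPG4 was at 18.0 and 0.818 in the WT libraries, and its change was 5.15 without WT replicate 1 and 1.77, no longer passing, without WT replicate 2 (adjusted p = 0.25). Without WT replicate 2 SPARC changed by 1.64 (adjusted p = 0.27), and without WT replicate 1 PDGFRL changed by 0.86 (adjusted p = 0.17). In KO1, 4 rose and 1 fell, or 55.6% where 25.0% of all genes were called, with a median of -0.38. In KO2, 4 rose and 2 fell, or 66.7% where 16.3% of all genes were called, with a median of 1.49. PDGFRL rose by 5.67 in KO1 and 6.66 in KO2, to 299 and 599.7 normalized counts. PLAT, the tissue plasminogen activator that removes the CUB domain of PDGF-C, rose by 4.40 in KO1, from 348 to 7321. It rose in KO2 too, to a mean of 1748, and its means were 5098 in Rescue1 and 2591 in Rescue2. PLAU, urokinase, which can activate PDGF-D, fell by 2.87 in KO2, from 173 and 509 to 16.5 and 94.3. That change was -1.64 without KO2 replicate 1 (adjusted p = 0.17) and -2.09 without WT replicate 2 (adjusted p = 0.12), neither passing, and -4.09 without KO2 replicate 2. LRP1, a receptor of lipoproteins and proteases that associates with PDGFRβ, rose by 3.31 in KO1 and 2.47 in KO2. Against the knockouts, the rescue clones had PDGFRL (-3.77) and LRP1 (-2.28) lower and PLAU (3.50) higher, within 3 higher and 2 lower of 9. This was 55.6% where 23.3% of all genes were called. In the libraries labelled KO2_Rescue, PDGFRL fell by 1.75 (adjusted p = 0.11 without KO2 replicate 1) and THBS1, a matrix protein, rose by 1.07. They were 2 of the 9 genes tested, where 4.17% of all genes were called. In the eGFP line PDGFRL (3.53), PLAT (2.07) and NRP1 (1.29), a co-receptor of PDGF and VEGF ligands, were higher than in WT and 1 gene was lower. These were 4 of the 9 genes tested, where 12.7% of all genes were called.

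Signalling proteins that bind the activated receptors, or act next to those that do, were measured for 18 genes, all tested. With TGF-β none passed limma's test with its threshold of 1, although 9 had an unadjusted p under 0.05, and the median change was 0.15. In KO1, 3 rose and 2 fell, and in KO2, 1 rose and 1 fell, or 27.8% and 11.1% where 25.0% and 16.3% of all genes were called. FYN, a SRC-family kinase, rose most, by 8.08 in KO1 and 7.36 in KO2, from 7.68 normalized counts in WT to 2150.1 and 1291. SRC (1.89) and SHC1 (1.60), an adaptor to the RAS pathway, rose in KO1. GRB2, the adaptor that brings SOS to the receptor, fell by 2.06 in KO2, and its change was -1.25 without KO2 replicate 1, which did not pass (adjusted p = 0.13). In the rescue clones against the knockouts, 3 rose and 2 fell, or 27.8% where 23.3% of all genes were called. Among them were PIK3R2 (3.73), a regulatory subunit of PI3K, GRB2 (2.08) and FYN (-2.08). Of 7 genes that limit receptor signalling, none passed limma's test and the threshold of 1 with TGF-β, where 4 had an unadjusted p under 0.05. SOCS3 (-0.84, adjusted p = 0.00017) and SOCS1 (0.74, adjusted p = 0.015) missed only the threshold. In KO1 2 rose and in KO2 1, or 28.6% and 14.3% where 25.0% and 16.3% of all genes were called. These were SOCS1 (3.78 in KO1 and 2.96 in KO2) and SOCS3 (1.59 in KO1), which are suppressors of cytokine signalling, whereas the ubiquitin ligases CBL and CBLB and the phosphatases PTPRJ, PTPN1 and PTPN2 were not called in either clone. Under the threshold of 1, SOCS3 was at 0.55 (adjusted p = 0.0023) and CBL at -0.31 (adjusted p = 0.015) in KO2. The rises of SOCS1 and SOCS3 were not limited to the knockouts. In the eGFP line against WT, SOCS3 rose by 3.23 and SOCS1 by 2.06, 2 of the 7 genes where 12.7% of all genes were called. Between the rescue clones and the knockouts, SOCS1 (-0.93) and SOCS3 (0.63) stayed under the threshold.

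Genes that growth factors induce were measured for 16 of 19 listed. JUNB, EGR1 and SRF are not analysed here. With TGF-β, SPRY4 (2.28) and IER3 (1.28) rose and none fell, with a median of 0.77 against 0 for all genes, and IER3 was under the threshold without WT replicate 2 (0.93). The 2 genes were 12.5% of the list, where 7.84% of all genes were called. In KO1, 4 rose and 1 fell, or 31.2% where 25.0% of all genes were called, led by DUSP6 (5.47, from 14.4 to 667 normalized counts), a phosphatase that acts on ERK, and SPRY4 (2.86), a feedback inhibitor of receptor tyrosine kinases. In KO2, 2 rose and 2 fell, or 25.0% where 16.3% of all genes were called, DUSP6 by 4.46 and SPRY4 by 1.64 on the one side and MYC (-3.56), a transcription factor of growth, and 1 other gene on the other. MYC fell in KO1 too (-2.58) and rose by 3.96 in the rescue clones against the knockouts, where FOSB (1.48) and FOSL1 (1.38) rose as well. FOSB did not pass without KO1 replicate 1 (1.02, adjusted p = 0.078). The immediate early genes FOS, FOSB, JUN and IER3 separated the transduced lines from all other groups, whereas FOSL1, EGR2, EGR3, MYC and IER2 overlapped. FOS was at 1464 to 2215 normalized counts in the 8 libraries of the transduced WT lines and at 0 to 22.3 in the other 14. Among those 14 were the 4 rescue libraries, which were in the same serum and also carried a lentivirus. Against WT, 8 of 16 rose in the eGFP line and none fell, where 12.7% of all genes were called, led by FOS (8.73), FOSB (8.31) and EGR3 (4.91, and 4.13 with an adjusted p of 0.11 without WT_eGFP replicate 2).

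**Figure D5:**
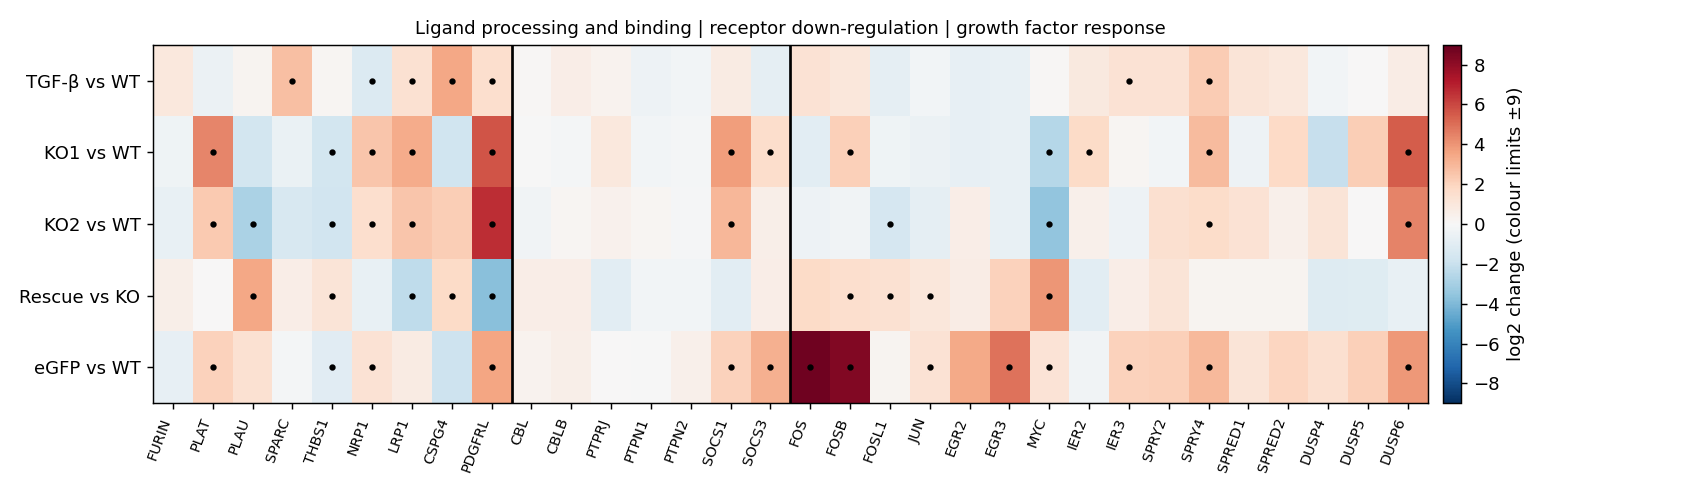
Colours give the log2 change (red higher, blue lower) of the tested genes for ligand processing and binding, receptor down-regulation and growth factor response in 5 comparisons, and dots mark changes that passed the test. PDGFRL, PLAT, LRP1, SOCS1, SPRY4 and DUSP6 are among those marked higher in both KO1 and KO2. MYC is marked lower in both, and FOS and FOSB stand out in the eGFP line.

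Receptors and ligands related to the PDGF family were measured for 13 genes, of which 9 were tested. With TGF-β, 2 rose and 1 fell, or 33.3% where 7.84% of all genes were called. The fall was in KITLG, the ligand of KIT, by 3.72 on the log2 scale (3480.1 to 266 normalized counts), and the rises were in CSF1R (3.15), the receptor of CSF1, and VEGFA (1.14). Without WT replicate 2 neither rise passed, with CSF1R at 1.72 (adjusted p = 0.27) and VEGFA at 0.82. In KO1, 3 rose and 1 fell, and in KO2, 2 rose and 1 fell, or 44.4% and 33.3% where 25.0% and 16.3% of all genes were called. KITLG fell by 6.52 in KO1 and 5.55 in KO2, and KDR, a VEGF receptor, rose by 6.41 and 6.68. KITLG rose again by 3.06 in the rescue clones against the knockouts and KDR fell by 4.09.

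These relatives include neighbours of the PDGF receptors. KIT, the next protein-coding gene on the far side of PDGFRA, 359 kb away, was at 0 in both WT and both TGF-β libraries. It was at 4.37 and 12.5 in KO1 and at 53.5 and 68.8 in KO2, at least 2.80-fold and 20.4-fold higher than WT against the floor of 3 (adjusted p = 0.0012 and 4.4e-06). KIT was lower in KO1 than in KO2 (-2.86, adjusted p = 0.0067), which did not pass without KO2 replicate 2 (-2.68, adjusted p = 0.056). PDGFRA and KIT were both detected in the rescue clones, where KIT was at 10.5 to 42.1. CSF1R lies 0.5 kb from PDGFRB and rose with TGF-β from 64.0 and 8.02 to 242 and 188 (adjusted p = 0.021), where PDGFRB was at 28.9 and 63.5. RPL3, a ribosomal protein gene 67.9 kb from PDGFB, fell by 1.29 in KO1 (adjusted p = 0.0059) and rose by 1.51 in the rescue clones against the knockouts (adjusted p = 8.4e-05). PRKAR1B, 28.9 kb from PDGFA, rose by 1.48 in the rescue clones (adjusted p = 3.4e-05), where PDGFA did not pass. No measured neighbour of PDGFC or PDGFD passed with TGF-β or in either knockout against WT.

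The genes most like each member were found by Pearson's r of their group means over the 11 groups, as a description, among about 9428 genes with a mean of at least 50 normalized counts. The groups share their serum and selection, so such likeness carries those too. PDGFB was most like ATP10A (r = 0.978), a phospholipid flippase gene, FGF1 (0.975), a fibroblast growth factor, and FERMT1 (0.973), an integrin adaptor of epithelia. PDGFRA was most like TMED9 (0.972), SLC39A13 (0.966), a zinc transporter, and KLHL5 (0.964). PDGFA was most like PIK3IP1 (0.975), MYADM (0.97) and EML3 (0.969), and PDGFC most like SPECC1 (0.972), PICALM (0.967) and GADD45B (0.964). The low genes PDGFD (CYP27A1, 0.952) and PDGFRB (TBC1D16, 0.893) had weaker nearest matches.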

How the data were processed

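RNA from RPTEC was sequenced by the authors from TruSeq Stranded mRNA libraries on a NovaSeq 6000. Per the study's methods transcripts of Ensembl release 94 (GRCh38) served as the Salmon index, and the submitters' processing notes list Salmon 1.9.0 and DESeq2 1.26.0. The authors deposited 1 table of log2 values for 36859 genes in 22 libraries, of which 33878 had a symbol in the annotation used here. How these were transformed is not given in the sources used here. They were read as variance-stabilized values, because all libraries share a lowest value of 11.32 (the highest was 21.28), and the inverse of that transformation gave normalized counts. The plan had allowed for this. Whole reads were not recovered, since only 12.9% to 23.7% of low values were within 0.05 of a whole multiple of 1 step. The approximate depth of 7500000 to 18800000 reads per library was the total divided by that poorly fixed step, so it is uncertain.

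The test was limma 3.58.1 in R 4.3.3 (lmFit on group means, contrasts, eBayes with trend) on log2(normalized count + 1), with no covariate. One fit held all 22 libraries. Genes needed 10 or more normalized counts in 2 or more libraries, which 14585 met, all 6 members among them. P-values were adjusted by Benjamini-Hochberg over all genes tested in each of 13 comparisons, and a change was called where the adjusted p was below 0.05 and the log2 change above 1 in size. The script was tested on simulated data. Nothing says that duplicates came from separate cultures, so p-values measure only the spread between these libraries, which may be technical. Duplicate numbers did not pair libraries across groups (correlations of deviations from the group mean of -0.082 to 0.047 over 55 pairs of groups).

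Levels were compared between genes per kb of the longest GENCODE release 44 transcript. A group at 0 was set against a floor of 3 normalized counts per group mean. Named genes were the members, at most 3 called genes with the greatest change per list and comparison, the nearest protein-coding gene on each side of a member, and the 3 genes most like each member. The members and lists were chosen with earlier results of these data known. Alternatives were pseudocounts of 0.5 and 5, other filters, scalings and library sets, the deposited log2 values, a replicate block, and leaving out each library, which for genes of the other lists was added after seeing the data.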

Additional observations from a re-analysis of the deposited data

Results flagged for a closer look

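KO1 and KO2 were set against the same 2 WT libraries, and 7 of the genes named for them differed between the clones by limma's test of KO1 against KO2. PDGFB was lower in KO1 (log2 difference -1.18, adjusted p = 0.015), and so was KIT (-2.86, adjusted p = 0.0067). Higher in KO1 were PLAT (2.06, adjusted p = 5.3e-08), SRC (1.10, adjusted p = 9.8e-06), SOCS3 (1.04, adjusted p = 3.3e-05), SPRY4 (1.22, adjusted p = 0.0066) and GRB2 (1.95, adjusted p = 0.021). Of these, PDGFB, PLAT, KIT and SPRY4 passed against WT in both clones and in the same direction. SRC and SOCS3 passed in KO1 and were higher in KO2 too, under the threshold of 1, by 0.79 (adjusted p = 5.9e-05) and 0.55 (adjusted p = 0.0023). GRB2 passed in KO2 and was at -0.12 in KO1 (adjusted p = 0.89). Without KO2 replicate 2 the differences of PDGFB, KIT, SPRY4, SRC and SOCS3 no longer passed, with changes of 0.95 for SRC and 0.92 for SOCS3. That of PDGFB did not pass without KO1 replicate 2 either. The difference of GRB2 did not pass without KO2 replicate 1 (1.13) or without KO1 replicate 1 (1.67), nor did that of SOCS3 without KO1 replicate 1 (0.99). Each clone is a single clone, so a difference between them cannot be told apart from variation between clones. Groups of 2 libraries are too small to look for single outlying libraries.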

How the results depend on the processing

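Of the 20 changes called among the 6 genes, none changed sign under any alternative, and 245 of 276 recomputed values kept the call. On the deposited log2 scale, which compresses low genes, the numbers of members called were 1 for TGF-β, KO1 and KO2 against WT, KO against TGF-β, rescue against KO and eGFP against WT, and 0 for KO1 against KO2, rescue against eGFP and KO2_Rescue against KO2. PDGFRA passed in no comparison on that scale. Its calls therefore rest on the normalized counts, which came from inverting a transformation that was inferred here. With a mean of at least 50 normalized counts, which leaves PDGFRA, PDGFRB and PDGFD untested, the number was 1 for KO2 against WT, rescue against KO and rescue against eGFP. In a fit of only the libraries compared it was 1 for TGF-β and 0 for KO1 against KO2, and a pseudocount of 5 gave 2 for KO1 against KO2. Leaving out 1 library gave 3 to 4 for TGF-β, 2 to 3 for KO1 against WT, 2 for KO2 against WT, 3 to 4 for KO against TGF-β, 0 to 1 for KO1 against KO2, 2 to 3 for rescue against KO and against eGFP, and 1 to 2 for eGFP against WT. The replicate block left all 13 member counts as they were (3 for TGF-β) and gave 1116 in place of 1143 genes called with TGF-β.

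All 39 reversals were of changes that had not passed. Leaving out 1 library took PDGFRB from -0.31 to 2.60 in KO1, from -1.43 to 2.14 in KO2, from -0.99 to 2.58 between the clones, from -0.24 to 3.34 in KO2_Rescue against KO2, from -1.08 to 1.83 in eGFP against WT and from -0.72 to 1.14 in the PRRX1 line. It took PDGFD from -4.55 to 0.28 with TGF-β, from -0.68 to 0.93 in KO2 and from -1.56 to 3.28 in KO against TGF-β. It took PDGFA from -0.16 to 0.65 in KO1, from -0.62 to 0.19 in KO2, from -0.03 to 0.33 in the SOX2, from -0.10 to 0.26 in the OCT2 and from -0.18 to 0.18 in the PRRX1 line. PDGFRA went from -0.06 to 0.48 in KO against TGF-β, from -0.44 to 1.18 in the SOX2 and from -0.83 to 0.79 in the OCT2 line. PDGFB went from -0.05 to 0.14 in the OCT2 line, from -0.09 to 0.29 in the PRRX1 line and from 0 to 0.10 between rescue clones, and PDGFC from -0.07 to 0.01 between rescue clones and from -0.06 to 0.66 in eGFP against WT. With the same total for every library, PDGFA was -0.16 in KO1, 0.24 in rescue against KO and 0.01 in the PRRX1 line, PDGFD was -0.09 in KO2 and PDGFRA 0.01 in the OCT2 line. Quantile normalization gave -0.05 for PDGFRB in KO2 and -0.13 for PDGFRA in the SOX2 line, a pseudocount of 0.5 gave 0.04 for PDGFRA in the OCT2 line, and rescue against KO2 alone gave 0.08 for PDGFA.

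The same total for every library shifted the median of all genes by -0.199 with TGF-β, -0.392 in KO1, -0.207 in KO2, -0.177 between the clones and 0.372 in rescue against KO. It changed the split of higher and lower calls from 522 and 621 to 358 and 935 with TGF-β, from 1744 and 1909 to 1161 and 3006 in KO1, from 1315 and 1063 to 1076 and 1519 in KO2, from 361 and 655 to 260 and 889 between the clones, and from 1652 and 1740 to 2794 and 1171 in rescue against KO. All called members kept their call under it. Genes called fell to 431 with TGF-β, 2241 in KO1, 255 between KO clones, 44 between rescue clones and 1208 in eGFP against WT when only the compared libraries were fitted, to 1942 in KO against TGF-β and 2147 in rescue against KO at a mean of at least 50, and to 0 to 178 on the deposited scale. Leaving out WT replicate 2 gave 739 with TGF-β, and between the clones the count was 1745 without KO1 replicate 1 and 642 without KO2 replicate 2. The 3, 5 and 6 genes called in the SOX2, OCT2 and PRRX1 lines were 0 to 41 over all alternatives. With normalized counts this low, PDGFD, PDGFRB and the WT level of PDGFRA rest on few reads.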
